A study of Mus musculus with 24 samples.

Results

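Inflammasome components were followed at the RNA level in RAW 264.7 macrophages, a transformed mouse macrophage line, given grape proanthocyanidins (PAC) and bacterial lipopolysaccharide (LPS). The components were 10 genes picked by symbol: Nlrp3, Nlrc4, Aim2, Pycard, Nek7, Casp1, Casp4, Gsdmd, Txnip and P2rx7. All 10 were measured, each by 1 of the 22206 gene features of a Clariom S mouse array. The list was set by pathway membership, with earlier results of these data known.

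An inflammasome is a cytosolic protein platform that a macrophage builds after a sensor detects microbial products or cell damage. A priming signal such as LPS, acting through TLR4, raises the RNA of several components, and a separate trigger then drives assembly. The platform activates caspase-1, which matures the cytokines IL-1β and IL-18 and cleaves gasdermin D into a pore-forming fragment, and the pore can end in lytic death called pyroptosis.

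The 24 arrays formed 8 groups with 3 arrays each. Control cells were mock treated. The low, medium and high PAC groups received fractions that differ in their mean degree of polymerization, each at 15 µg/mL. The LPS group received 500 ng/mL, and in the low, medium and high PAC + LPS groups PAC preceded LPS by 30 min. RNA was taken 6 h after stimulation. All groups were the same line and no label names a genetic change, so the results describe 1 cell line. No source used here says whether the 3 arrays of a group came from separate cultures, and the p-values therefore reflect the scatter among the arrays at hand, which may be technical. The arrays measured RNA alone, without protein cleavage or a triggering signal, and in bulk RNA fewer cells of a type and less RNA per cell cannot be told apart.

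Values are the deposited log2 signals, which ranged from 0.95 to 19.26. With 8242 values above 16, which a 16-bit scanner cannot give, the scale is stretched or shifted in a way not given in the sources used here, so changes are differences on this deposited scale and are not turned into fold changes. Levels of different genes are not set against each other. Signal under a silent level of 4.73, the 95th percentile over olfactory and vomeronasal receptor genes, cannot be told from background. The negative controls of the arrays had medians from 4.76 to 5.12, above that level. Signal a little over 4.73 may therefore be background too. Gene medians of the arrays ran from 4.86 to 5.06, and arrays of a group correlated at 0.989 to 0.994. Of 7 measured macrophage markers, 6 lay above the silent level, with a mean of 12.57 to 13.94 over arrays, and Mertk lay below it. The B cell and epithelial lists had 0 markers above it, and the T cell, neutrophil and fibroblast lists had 1 each, with array means from 3.63 to 4.67, 3.44 to 6.34 and 3.77 to 5.03. Among the 12 arrays without LPS, 3 stood apart by Il1b, the IL-1β gene, which read 9.39 in medium PAC replicate 3 and 11.92 and 9.62 in high PAC replicates 2 and 3, against at most 6.40 in the other 9. In those arrays Nlrp3 read 10.13, 11.38 and 11.15, close to the 10.16 of the other medium PAC arrays and the 11.23 of the other high PAC array. Casp4 read 10.29, against 9.53 and 10.08 in the other medium PAC arrays, and 9.28 and 9.37, against 9.71 in the other high PAC array. P2rx7 read 11.26, against 11.33 and 11.77, and 12.05 and 11.91, against 11.82.

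LPS was tested against control first, then each PAC fraction in resting and in LPS-activated cells. Differences were tested with limma on all 24 arrays, and a gene was said to change at a Benjamini-Hochberg adjusted p under 0.05 over the 22206 features. LPS moved 8 of the 10 components: Nlrp3, Casp1, Casp4, Gsdmd and Aim2 rose, and Nek7, Txnip and P2rx7 fell. Over all features 13.5% rose and 20.3% fell. The median change was 1.06 over the components and 0.03 over all features, and the median size of a change was 1.73 against 0.38.

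**Figure D1:**
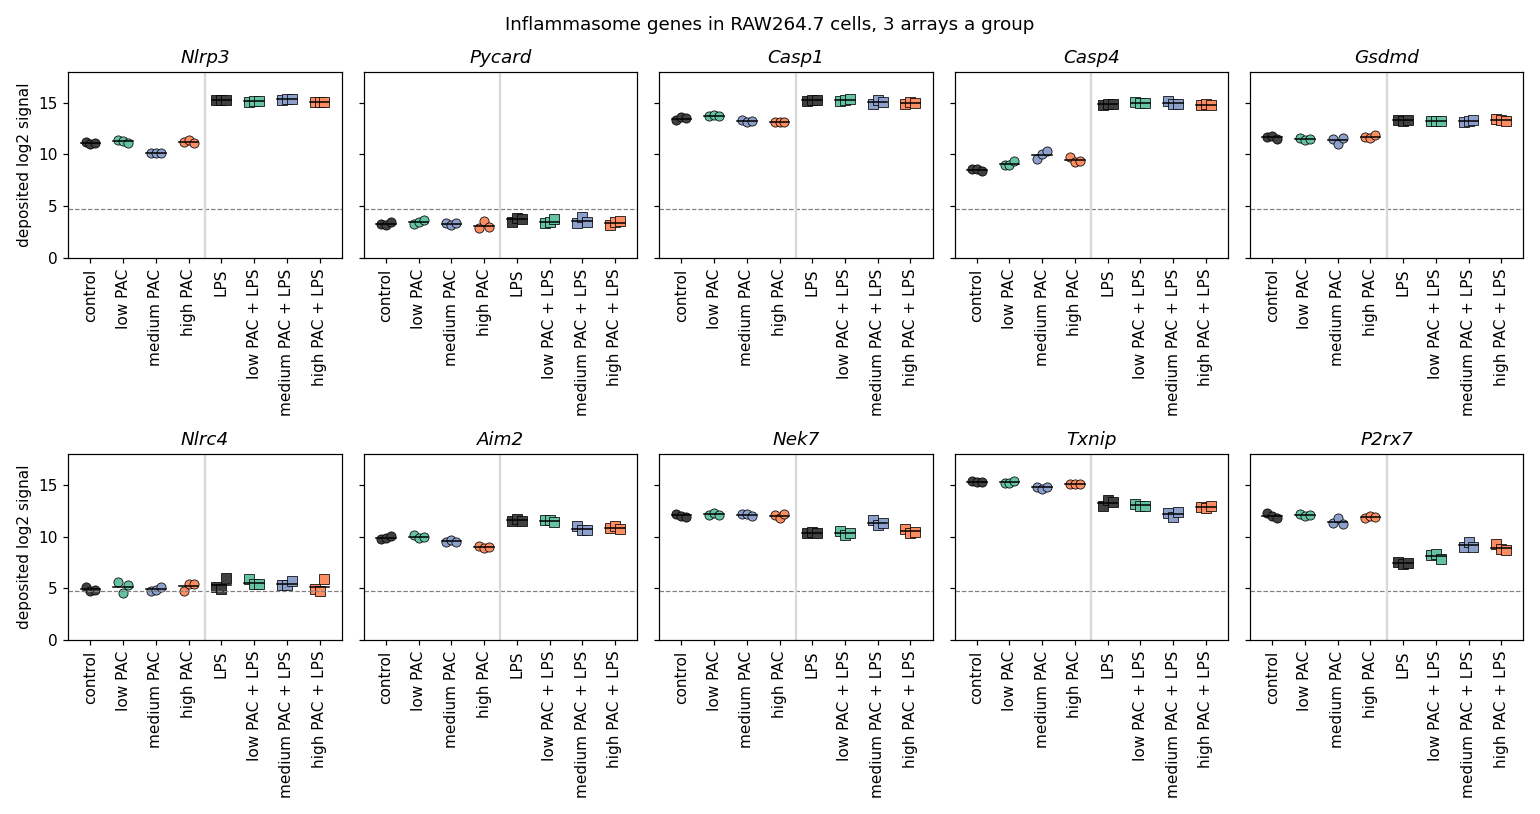
Deposited log2 signal (vertical axis) of each of the 10 inflammasome components in all 24 arrays, by treatment group (horizontal axis); points are arrays, short bars are group means, and the dashed line is the silent level of 4.73. Nlrp3 and Casp4 sit high in all 12 LPS arrays, P2rx7 sits low in them, and Pycard stays under the silent level throughout.

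The sensors come first. Nlrp3, the sensor of ion flux and membrane damage, read 11.19, 11.06 and 11.09 in control and 15.29, 15.27 and 15.31 with LPS. The arrays of each group lay close together and the groups were far apart. The change was 4.17 (SE 0.10, 95% CI 3.95 to 4.39, limma adjusted p = 3.8e-17). Aim2, the sensor of cytosolic double-stranded DNA, read 9.78, 9.88 and 10.07 in control and 11.53, 11.68 and 11.56 with LPS. The groups did not overlap, and the gene rose by 1.68 (SE 0.14, adjusted p = 2.1e-09). Nlrc4, which partners NAIP proteins in sensing flagellin and secretion-system proteins, read 5.10, 4.73 and 4.84 in control and 5.12, 4.90 and 6.01 with LPS. These arrays overlapped close to the silent level, and the difference of 0.45 had a 95% CI from -0.20 to 1.11 (adjusted p = 0.32).

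Pycard encodes ASC, the adaptor that joins sensors such as Nlrp3 and Aim2 to caspase-1. Its signal lay under the silent level in all 24 arrays, between 2.84 and 3.98. With a signal that low, its difference of 0.42 between LPS and control (adjusted p = 0.098) gives no level. The arrays showed no Pycard RNA above background, and whether these cells can join Nlrp3 or Aim2 to caspase-1 was not tested. Nek7, a kinase that binds Nlrp3 and is needed for its assembly, read 12.22, 12.05 and 11.94 in control and 10.32, 10.49 and 10.39 with LPS. It fell by 1.67 on the log2 scale (SE 0.15, adjusted p = 1.4e-08), with no overlap.

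The effectors rose together. Casp4, the gene of mouse caspase-11, the protease that binds LPS inside the cell and cleaves gasdermin D, read 8.63, 8.59 and 8.35 in control and 14.83, 14.89 and 14.90 with LPS. Its change of 6.35 (SE 0.17, 95% CI 5.99 to 6.71, adjusted p = 9.6e-17) was the largest of the 10 components. Casp1, the protease of the canonical platforms, read 13.32, 13.59 and 13.49 in control and 15.16, 15.29 and 15.31 with LPS, a rise of 1.79 (SE 0.12, adjusted p = 7e-11). Gsdmd, the pore-forming substrate of both caspases, read 11.67, 11.81 and 11.48 in control and 13.37, 13.27 and 13.29 with LPS, a rise of 1.66 (SE 0.14, adjusted p = 4.5e-09). In none of these genes did a control array reach an LPS array.

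Upstream inputs went the other way. P2rx7, the ATP-gated channel through which extracellular ATP lowers cell potassium and triggers Nlrp3, read 12.31, 12.03 and 11.77 in control and 7.55, 7.31 and 7.42 with LPS. It fell by 4.61 (SE 0.19, 95% CI -5.00 to -4.22, adjusted p = 3.8e-14), the largest fall of the 10. Txnip, which binds thioredoxin and has been described as a redox-linked partner of Nlrp3, read 15.36, 15.28 and 15.34 in control and 12.97, 13.52 and 13.37 with LPS. It fell by 2.04 (SE 0.14, adjusted p = 2.1e-10). Both genes were separated from control in every LPS array.

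Cell type markers moved beside the components, where 13.5% of all features rose and 20.3% fell. Of the 7 macrophage markers 3 rose and 2 fell with LPS, among them Fcgr1, an Fc receptor (3.81), Itgam, an integrin (1.98), and Csf1r, the receptor of the macrophage growth factor, which fell by 3.02. Their mean over the list ran from 13.36 to 13.44 in control arrays and from 13.60 to 13.82 with LPS. Of the 4 neutrophil markers only S100a8, a calcium-binding alarmin, rose (8.39), and the granule markers Elane and Mpo stayed under the silent level, with a list mean from 3.44 to 4.12 in control and from 5.67 to 5.98 with LPS. The part of these shifts in the component changes was not tested.

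**Figure D2:**
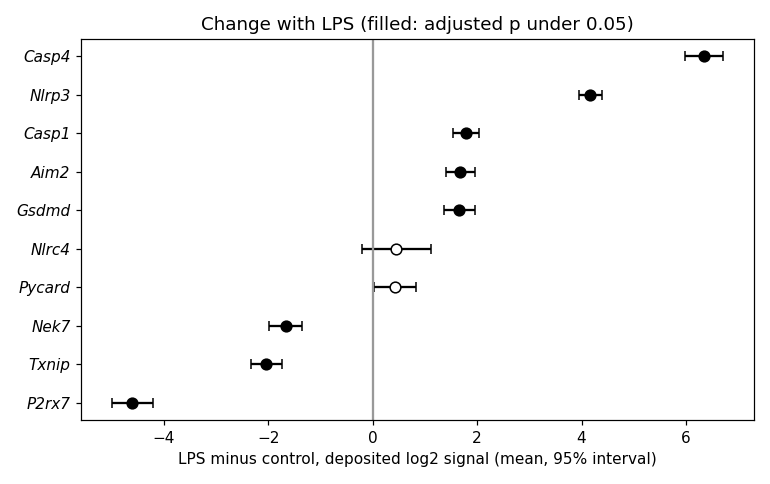
Change between LPS and control (horizontal axis, difference on the deposited log2 scale) for each inflammasome component; points are limma estimates over 3 arrays against 3 and bars are 95% confidence intervals. Casp4 lies highest at 6.35, P2rx7 lowest at -4.61, and Nlrc4 spans 0.

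The promoters of Casp4 and Casp1 are shown because the genes are neighbours on chromosome 9 and encode related proteases, and because only they held a match to the motifs searched. The stretches are the 250 bases before the RefSeq start in GRCm38.p6, on the plus strand, at chr9:5308599-5308848 for Casp4 and chr9:5298267-5298516 for Casp1. Capitals mark motif matches, an NF-kB-like site in Casp4 and an E-box in Casp1.
Casp4: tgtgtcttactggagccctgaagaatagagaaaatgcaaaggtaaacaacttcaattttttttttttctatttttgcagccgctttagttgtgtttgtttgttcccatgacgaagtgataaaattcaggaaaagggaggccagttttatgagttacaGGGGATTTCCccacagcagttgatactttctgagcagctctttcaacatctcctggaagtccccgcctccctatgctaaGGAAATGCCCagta
Casp1: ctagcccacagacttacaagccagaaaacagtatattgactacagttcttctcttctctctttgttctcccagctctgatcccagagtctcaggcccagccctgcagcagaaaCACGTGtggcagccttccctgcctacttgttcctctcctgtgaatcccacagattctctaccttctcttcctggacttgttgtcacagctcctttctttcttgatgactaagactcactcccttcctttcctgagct
Of the 10 genes, 9 had an entry in the RefSeq promoter table, with 12 start sites in all, and Gsdmd had none. Windows of 300 bases, 250 before and 50 after each start, were searched on both strands. An NF-kB-like site, the motif by name, was found in 1.63% of 32851 promoters and in 1 component, Casp4, where matches lay at -93 to -84 on the same strand and at -14 to -5 on the opposite strand, counted in bases from the start. An interferon-stimulated response element by name was found in 3.44% of promoters and in 0 components. The E-box CACGTG, the same on both strands, was found in 7.15% of promoters and in 1 component, Casp1, at -137 to -132. A match is a run of letters and was not tested for binding.

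In resting cells the fractions differed in how many components moved. Low PAC moved 0 of the 10 components by limma, against 0.0315% of all features that rose and 0.0045% that fell. With low PAC, 2 components and 1065 of 22206 features had an unadjusted p under 0.05. That is no more features than this threshold passes by chance. The 2 components were Casp4 (0.59, adjusted p = 0.53) and Casp1 (0.26, adjusted p = 0.97). Medium PAC raised 1 component and lowered 3, where 5.03% of all features rose and 6.28% fell. High PAC raised 1 and lowered 1, where 3.21% of features rose and 3.64% fell. The median change over the components was 0.14, -0.25 and -0.07 with low, medium and high PAC, against 0, 0 and 0.01 over all features. These comparisons share the 3 control arrays.

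Nlrp3 read 10.16, 10.16 and 10.13 with medium PAC, under every other array of the 24. It fell by 0.97 from control (SE 0.10, 95% CI -1.18 to -0.75, adjusted p = 1.1e-06). With low PAC it read 11.42, 11.33 and 11.15, and with high PAC 11.23, 11.38 and 11.15. Both groups overlapped control, and their differences of 0.18 (95% CI -0.03 to 0.40) and 0.14 (95% CI -0.08 to 0.36) did not pass.

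Casp4 moved the opposite way. It read 8.98, 9.01 and 9.36 with low PAC, 9.53, 10.08 and 10.29 with medium PAC and 9.71, 9.28 and 9.37 with high PAC. Each of these 9 arrays lay above all 3 control arrays. Medium PAC raised it by 1.45 (95% CI 1.09 to 1.80, adjusted p = 3.6e-06) and high PAC by 0.93 (95% CI 0.57 to 1.29, adjusted p = 0.0012). Casp1, its neighbour, differed from control by -0.24 (95% CI -0.48 to 0.01) with medium PAC and by -0.30 (95% CI -0.54 to -0.05, adjusted p = 0.16) with high PAC, where its arrays read 13.16, 13.19 and 13.16. The high PAC difference passed in limma with an intensity trend and a robust prior (adjusted p = 0.029).

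Aim2 read 9.09, 8.90 and 8.99 with high PAC, below all other arrays in resting cells. It fell by 0.92 from control (95% CI -1.20 to -0.63, adjusted p = 0.00014). With medium PAC it read 9.50, 9.65 and 9.46, a difference of -0.37 (95% CI -0.65 to -0.09, adjusted p = 0.094). With low PAC it read 10.16, 9.86 and 10.02, with 1 array above the highest control array and 2 between control arrays.

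Txnip read 14.85, 14.66 and 14.80 with medium PAC and lay under every other resting array. It fell by 0.56 (95% CI -0.86 to -0.26, adjusted p = 0.012), although the call was lost without medium PAC replicate 2 and when only the groups compared were fitted, with adjusted p from 0.00027 to 0.057 over 14 alternatives. P2rx7 read 11.33, 11.77 and 11.26 with medium PAC, overlapping control in 1 array, and fell by 0.58 (95% CI -0.97 to -0.19, adjusted p = 0.049). That call was lost without control replicate 1 or 2, without medium PAC replicate 1 or 3, without the 3 arrays high in Il1b and with only the groups compared, with adjusted p from 0.02 to 0.22 over 14 alternatives. Without the 3 arrays high in Il1b medium PAC moved 3 components and high PAC 2. High PAC then moved 782 features, against 1521 with all arrays. Over all alternatives medium PAC moved 1624 to 3147 features, against 2512.

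Macrophage markers fell in the same resting cells, where 6.28% of all features fell with medium PAC and 3.64% with high PAC. Medium PAC lowered 5 of the 7, with a median change of -0.61 against 0 over all features, among them Fcgr1 (-2.27), Itgam (-0.85) and Csf1r (-0.63), and their list mean ran from 12.57 to 12.75 against 13.36 to 13.44 in control. High PAC lowered 2 of the 7, with a list mean from 13.03 to 13.17. Spi1, which encodes the macrophage lineage factor PU.1, differed by 0.05 with medium PAC (adjusted p = 0.84). The part of these shifts in the falls of Nlrp3, Aim2, Txnip and P2rx7 was not tested.

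**Figure D3:**
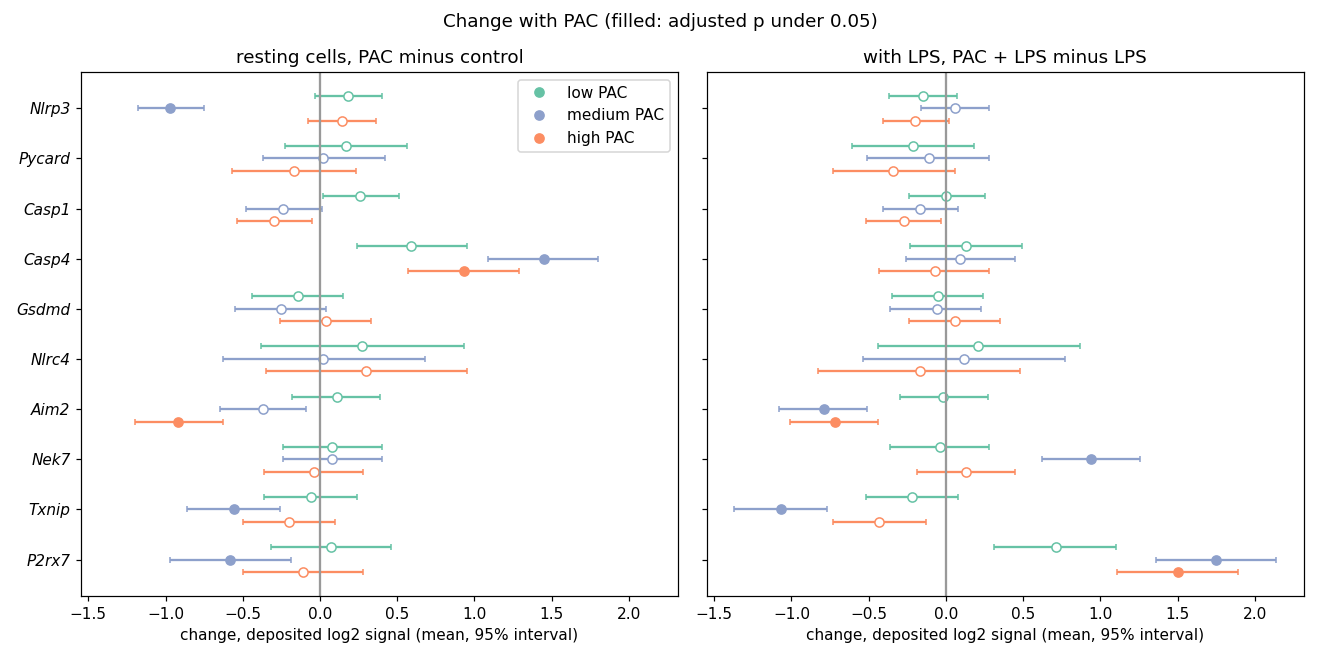
Change with each PAC fraction (horizontal axis, difference on the deposited log2 scale) for each inflammasome component, against control in resting cells and against LPS in LPS-activated cells; points are limma estimates over 3 arrays against 3 and bars are 95% confidence intervals. In resting cells Casp4 rises with medium (1.45) and high PAC (0.93) and Nlrp3 is low with medium PAC (-0.97), while with LPS P2rx7 is higher with medium (1.75) and high PAC (1.5).

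In LPS-activated cells P2rx7, Nek7, Txnip and Aim2 were the components that passed the test. Low PAC + LPS differed from LPS in 0 of the 10 components by limma, against 0.122% of features higher and 0.027% lower. An unadjusted p under 0.05 was reached by 1 component and 1725 of 22206 features. Medium PAC + LPS had 2 components higher and 2 lower than LPS, where 7.17% of features were higher and 7.47% lower. High PAC + LPS had 1 higher and 1 lower, where 4.34% were higher and 5.74% lower. The median difference over the components was -0.03, 0 and -0.18 with low, medium and high PAC, against 0, 0.01 and 0.01 over all features. These comparisons share the 3 LPS arrays.

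P2rx7 was the component that PAC moved most in activated cells. It read 8.24, 8.28 and 7.88 with low PAC + LPS, 9.01, 9.48 and 9.04 with medium PAC + LPS and 9.26, 8.78 and 8.73 with high PAC + LPS. All 9 arrays exceeded the highest LPS array at 7.55 and stayed under the lowest resting array at 11.26. Medium PAC raised it above LPS by 1.75 (95% CI 1.36 to 2.14, adjusted p = 6.4e-07) and high PAC by 1.5 (95% CI 1.11 to 1.89, adjusted p = 1.5e-05). The difference of 0.71 with low PAC (95% CI 0.31 to 1.10) had an unadjusted p of 0.0012 and an adjusted p of 0.23.

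Nek7 read 11.60, 11.14 and 11.29 with medium PAC + LPS, above all other arrays with LPS and below all arrays without it. It was higher than with LPS by 0.94 (95% CI 0.62 to 1.26, adjusted p = 0.00013). With high PAC + LPS it read 10.77, 10.39 and 10.41 and overlapped LPS, with a difference of 0.13 (95% CI -0.19 to 0.45). Txnip read 12.31, 11.93 and 12.40 with medium PAC + LPS, the lowest arrays of the 24, and fell by a further 1.07 from LPS (95% CI -1.37 to -0.77, adjusted p = 1.2e-05). With high PAC + LPS it read 12.84, 12.75 and 12.99 and overlapped LPS at 12.97. That difference was -0.43 (95% CI -0.73 to -0.13, adjusted p = 0.065), with adjusted p from 0.0066 to 0.31 over 13 alternatives. It passed in limma without LPS replicate 1 (adjusted p = 0.013). With all arrays it passed under median centring (0.0498), an intensity trend with a robust prior (0.0066) and a filter at the silent level (0.027).

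Aim2 read 11.08, 10.63 and 10.67 with medium PAC + LPS and 10.80, 11.01 and 10.79 with high PAC + LPS. All 6 arrays lay under the lowest LPS array at 11.53 and above the highest resting array at 10.16. Aim2 was lower than with LPS by -0.79 (95% CI -1.08 to -0.51, adjusted p = 0.00023) with medium PAC and by -0.72 (95% CI -1.01 to -0.44, adjusted p = 0.0012) with high PAC. With only the groups compared the second adjusted p was 0.051, within a range of 0.00029 to 0.051 over 13 alternatives.

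Markers moved in these cells too, where 7.47% of all features were lower with medium PAC and 5.74% with high PAC. Medium PAC + LPS lowered 2 of the 7 macrophage markers, Fcgr1 (-1.87) and Itgam (-1.29), and high PAC + LPS lowered 1, Lyz2 (-0.35), with list means from 13.20 to 13.23 and from 13.48 to 13.55 against 13.60 to 13.82 with LPS. S100a8 was lower by -5.69 with medium PAC and by -2.04 with high PAC. The part of these shifts in the component differences was not tested.

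The effectors did not pass in activated cells in the main fit. Casp4 read between 14.75 and 15.17 in all 12 arrays with LPS, and its differences from LPS ran from -0.07 to 0.13, each 95% CI lying between -0.43 and 0.49. Gsdmd read between 13.17 and 13.47 in these arrays, with differences from -0.06 to 0.06 and intervals between -0.36 and 0.35. Nlrp3 read between 15.08 and 15.41, with differences from -0.20 to 0.06 and intervals between -0.41 and 0.28. Casp1 read 14.90, 15.09 and 14.95 with high PAC + LPS, under every LPS array, a difference of -0.27 (95% CI -0.52 to -0.03, adjusted p = 0.16). It passed in limma with an intensity trend and a robust prior (adjusted p = 0.039).

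The change that PAC made was then compared between activated and resting cells, as an interaction within the same fit. An interaction depends on the scale, which is stretched or shifted here. Changes of equal size at low and at high signal may therefore not be alike. Low PAC gave 0 components by limma and 0% of all features. An unadjusted p under 0.05 was reached by 1049 of 22206 features, no more than this threshold passes by chance. Medium PAC gave 4 of the 10 components, against 6.29% of all features, and high PAC gave 2, against 1.91%. For P2rx7 the change with PAC was higher in activated than in resting cells by 2.33 with medium PAC (95% CI 1.78 to 2.89, adjusted p = 5.4e-06) and by 1.61 with high PAC (95% CI 1.06 to 2.16, adjusted p = 0.0015). For Nlrp3 it was higher by 1.02 with medium PAC (95% CI 0.72 to 1.33, adjusted p = 9.8e-05), and its difference with PAC in activated cells was 0.06.

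For Casp4 the interaction was -1.35 with medium PAC (95% CI -1.85 to -0.85, adjusted p = 0.00096) and -1 with high PAC (95% CI -1.51 to -0.50, adjusted p = 0.033). On the deposited scale the rise seen in resting cells was thus larger than the difference in activated cells, where Casp4 read between 14.75 and 15.17 in every array. For Nek7 it was 0.86 with medium PAC (95% CI 0.41 to 1.32, adjusted p = 0.017). That call was lost without control replicate 1, medium PAC replicate 3, medium PAC + LPS replicate 1 or the 3 arrays high in Il1b, with adjusted p from 0.0034 to 0.054 over 20 alternatives. The high PAC value of Casp4 missed the threshold in 10 of 20 alternatives, with adjusted p from 0.0021 to 0.094 and values from -1.26 to -0.87.

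The 3 fractions, which differ in chain length at equal mass concentration, were set against each other in 6 pairs, and p-values were adjusted over features within each pair. In resting cells medium and low PAC differed in 6 components, against 8.74% of all features. Nlrp3 was lower by -1.15 (adjusted p = 1.4e-07), Casp1 by -0.50 (adjusted p = 0.0075), P2rx7 by -0.65 (adjusted p = 0.032), Txnip by -0.50 (adjusted p = 0.033) and Aim2 by -0.48 (adjusted p = 0.031), and Casp4 was higher by 0.85 (adjusted p = 0.0019). The P2rx7, Txnip and Aim2 calls were lost when single arrays were left out, and 3 to 5 components then passed. Leaving out low PAC replicate 1 or 3 or medium PAC replicate 1 or 3 ended the P2rx7 and Aim2 calls, and leaving out any 1 of the 6 arrays ended that of Txnip. Without the 3 arrays high in Il1b, 3 components passed. Over all alternatives 1326 to 2518 features passed, against 1940 in the main fit.

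High and low PAC differed in 2 components, against 4.88% of all features. Casp1 was lower by -0.56 (95% CI -0.80 to -0.31, adjusted p = 0.006) and Aim2 by -1.03 (95% CI -1.31 to -0.74, adjusted p = 8.3e-05) with high PAC. The Casp1 call was lost without the 3 arrays high in Il1b, with adjusted p from 3.1e-05 to 0.14 over 14 alternatives. Medium and high PAC differed in 2 components, against 2.27%. Nlrp3 was lower with medium PAC by -1.10 (95% CI -1.32 to -0.89, adjusted p = 5.1e-06) and Aim2 was higher by 0.55 (95% CI 0.26 to 0.83, adjusted p = 0.035). The Aim2 call was lost when any 1 of the 6 arrays was left out. Casp4 differed between medium and high PAC by 0.51 (95% CI 0.16 to 0.87, adjusted p = 0.15), and without medium PAC replicate 1 by 0.73 (adjusted p = 0.02), where adjusted p ran from 0.02 to 0.98 over 14 alternatives.

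In activated cells medium and low PAC differed in 4 components, against 12.5% of all features. P2rx7 was higher with medium PAC by 1.04 (95% CI 0.65 to 1.43, adjusted p = 0.00045) and Nek7 by 0.98 (95% CI 0.66 to 1.30, adjusted p = 9.6e-05), and Txnip was lower by -0.85 (adjusted p = 0.00024) and Aim2 by -0.78 (adjusted p = 0.00035). High and low PAC differed in 2, against 6.99%. Aim2 was lower with high PAC by -0.70 (adjusted p = 0.0023), and P2rx7 was higher by 0.79 (95% CI 0.40 to 1.18, adjusted p = 0.011), a call lost without low PAC + LPS replicate 3 or high PAC + LPS replicate 1. Medium and high PAC differed in 2, against 5.37%. Nek7 was higher with medium PAC by 0.82 (95% CI 0.50 to 1.14, adjusted p = 0.0023). Txnip was lower by -0.64 (95% CI -0.94 to -0.34, adjusted p = 0.0095), a call lost without medium PAC + LPS replicate 2 or high PAC + LPS replicate 3. Aim2 in the activated medium and high PAC groups averaged 10.79 and 10.87 with overlapping arrays. When only the groups compared were fitted, with fewer arrays behind the spread, 1 component passed in each of the 3 resting pairs, 3 passed between medium and low PAC + LPS, and 0 passed in the other 2 pairs. Calls over all features fell too. In resting cells they fell from 1083 to 308 for high against low and from 504 to 55 for medium against high PAC. With LPS they fell from 2774 to 1569 for medium against low, from 1553 to 351 for high against low and from 1192 to 203 for medium against high PAC.

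The order of the 8 groups differed from gene to gene. Nlrp3, Casp1, Casp4, Gsdmd and Aim2 had the 4 LPS groups above the 4 resting groups, and Nek7, Txnip and P2rx7 had them below. P2rx7 had the clearest steps with LPS, from 7.43 in LPS through 8.13 with low PAC to 8.92 with high PAC and 9.18 with medium PAC, and the last 2 overlapped. Casp4 had steps in resting cells, from 8.52 in control through 9.12 with low PAC and 9.46 with high PAC to 9.97 with medium PAC, with neighbouring PAC groups overlapping. Spread within groups was a pooled SD from 0.08 for Nlrp3 to 0.41 for Nlrc4, whose group means ran only from 4.89 to 5.56. The group means of Nlrc4 spanned 0.67, and groups next to each other in its order overlapped.

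The features most like a component over the 24 arrays are given by Pearson correlation over 11300 features, as a description. The 24 arrays share the split into 12 with LPS and 12 without, which any LPS-responsive gene also carries. For Nlrp3 they were Rtp4 (0.995), Slfn8 (0.994) and Rassf4 (0.994), and 403 features exceeded 0.95. For Casp4 they were Nfkbib (0.997), Usp18 (0.996) and Lgals9 (0.996), with 512 features above 0.95. For Txnip they were Otulinl (0.990), Cd72 (0.988) and Marveld1 (0.988), with 240.

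Other genes of the pathway were counted in 7 lists. With low PAC, in resting or activated cells, 0 genes of any list passed in limma. Over all features 13.5% rose and 20.3% fell with LPS, 5.03% and 6.28% with medium PAC, and 3.21% and 3.64% with high PAC. In activated cells 7.17% were higher and 7.47% lower with medium PAC, and 4.34% and 5.74% with high PAC. In lists this small a few calls can lie near these shares, and no count was tested against them. With LPS the medians of the lists ran from -0.13 for Nlrp3 modifiers to 4.18 for the gatekeepers, against 0.03 over all features, and with medium or high PAC they ran from -0.32 to 0.30, against 0 to 0.01. The substrates and executioners, 11 of 13 measured, had 7 genes higher and 3 lower with LPS, with a median change of 0.78. Il1a and Il1b, the precursors of the IL-1 cytokines, rose by 14.38 and 12.02, with Il1a at 3.03 in control, under the silent level, and Mlkl, the executioner of necroptosis, rose by 4.70. Il18, the other cytokine precursor cut by caspase-1, averaged 9.64 ± 0.04 (SD, n = 3) in control, 8.15 ± 0.36 with medium PAC, 13.33 ± 0.04 with LPS and 10.96 ± 0.10 with medium PAC + LPS. It fell with medium PAC by 1.49 in resting cells (adjusted p = 4.9e-06) and by 2.38 in activated cells (adjusted p = 4.5e-09), and with high PAC it fell by 1.11 and fell by 1.46 in the same states. Ninj1, which ruptures the plasma membrane of dying cells, rose in the same 4 comparisons by 0.72, 0.89, 0.61 and 0.54. Il1a was lower with medium PAC + LPS by -3.68 (SE 1.19, adjusted p = 0.042), from a mean of 17.41 to 13.72, the largest difference of the list. Gsdme, another pore-forming gasdermin, fell by 1.31 with medium PAC in resting cells (adjusted p = 0.0048). Il1b read 17.54, 17.69 and 17.39 with LPS and 15.18, 15.07 and 15.27 with medium PAC + LPS, without overlap, but its difference of -2.37 did not pass (SE 1.17, adjusted p = 0.22). The spread fitted for Il1b took in the 3 resting arrays that stood apart. No gene of the 7 lists was refitted without these arrays. Il1a also spread widely in resting cells, with an SD of 2.32 within medium and 3.79 within high PAC. The spread behind its call with medium PAC + LPS took this in. Of genes named here and below, the SD within high PAC was 3.55 for Il1b, 1.35 for Zbp1, 1.25 for Gbp2 and 1.07 for Gbp7. The SD was 1.06 for Gbp3, 0.63 for Tnfaip3 and 0.57 for Ifi204. It was 0.06 for Ninj1 and 0.01 for Ctsb.

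The gatekeepers of LPS and vacuole sensing, 10 of 12 measured, were interferon-linked GTPases, transcription factors and chains of the type I interferon receptor. The list had 7 genes higher and 1 lower with LPS, and a median change of 4.18. The guanylate-binding proteins Gbp2, Gbp3 and Gbp7 rose by 10.70, 10.40 and 8.98, where Gbp2 and Gbp3 averaged 3.28 and 4.05 in control, under the silent level. Irf2, a transcription factor required for Gsdmd expression in mouse macrophages, fell with medium PAC by 1.04 in resting cells (adjusted p = 3.6e-06) and by 0.76 in activated cells (adjusted p = 0.00011). Gsdmd differed from the matching reference by -0.25 (95% CI -0.55 to 0.04) and -0.06 in the same groups. Irf2 also fell with high PAC in resting cells, by 0.63. Ifnar2, a chain of the type I interferon receptor, fell with medium PAC by 0.57 and was higher by 0.34 with medium PAC + LPS. Irgm1, an interferon-induced GTPase, rose with medium PAC by 0.81, and Gbp3 with high PAC by 1.51 (adjusted p = 0.0497) from a control mean under the silent level. In this list medium PAC moved 1 gene up and 2 down in resting cells and 1 up and 1 down in activated cells, and high PAC moved 1 up, 1 down and, with LPS, 0.

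Among genes of ion flux, ATP and lysosome damage, all 9 measured, 4 rose and 1 fell with LPS. P2rx4, the ATP-gated channel encoded next to P2rx7 on chromosome 5, averaged 9.13 ± 0.09 (SD, n = 3) in control and 12 ± 0.11 with LPS, a rise of 2.87 (adjusted p = 5.7e-11), where P2rx7 fell. Medium PAC took it to 11.29 ± 0.23 in resting cells, a rise of 2.16 (adjusted p = 4.2e-08), and to 13.00 ± 0.11 in activated cells, a rise of 1.01 (adjusted p = 0.00049). High PAC raised it by 1.45 and 0.80. Ctsb, the lysosomal protease cathepsin B, rose by 0.70 and 0.55 with medium and high PAC in resting cells and by 0.81 and 0.70 in activated cells. With LPS Chmp4b, a membrane repair subunit, rose by 2.31 and Lrrc8a, a subunit of the volume-regulated anion channel, by 1.86. Kcnk6, a potassium channel, was lower with medium and high PAC + LPS by -0.82 and -0.57, and Clic4, a chloride channel protein, with medium PAC by -0.36. The list had 2 genes up and 1 down with medium PAC, 2 up with high PAC, 2 up and 2 down with medium PAC + LPS, and 2 up and 1 down with high PAC + LPS.

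**Figure D4:**
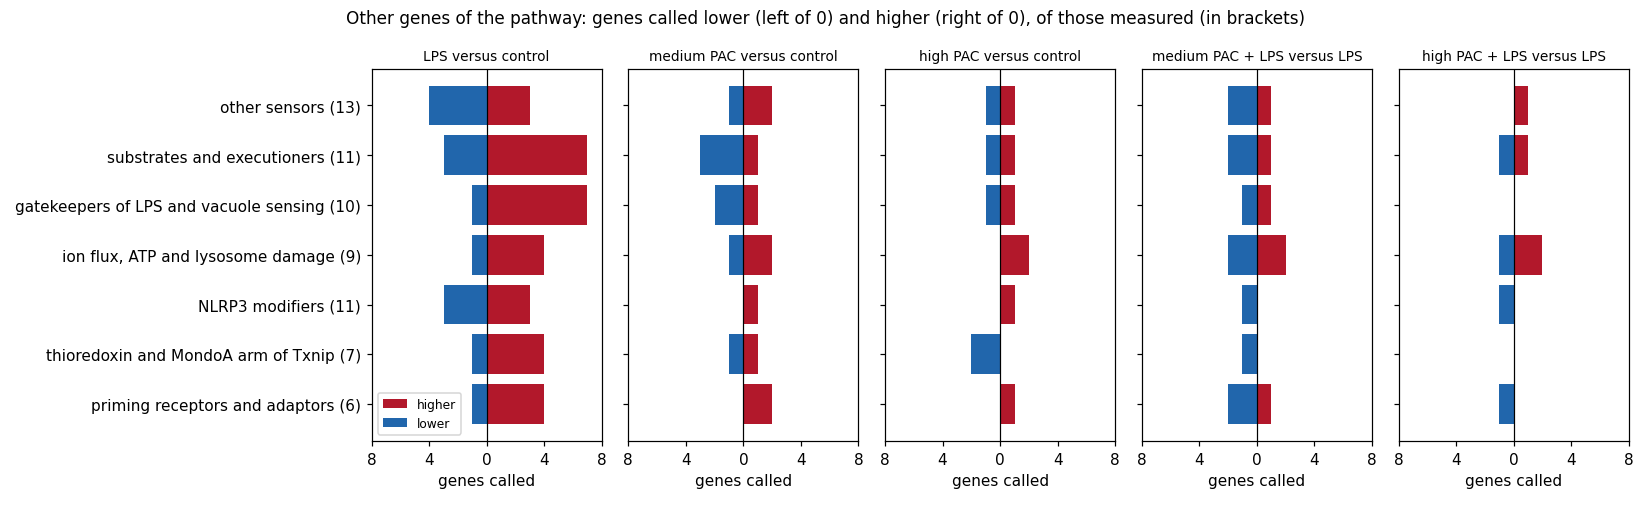
Number of genes (horizontal axis) called higher or lower past the limma threshold in each of 7 lists of other inflammasome pathway genes. Panels are LPS, medium PAC and high PAC against control, and medium and high PAC + LPS against LPS. LPS has the most calls in each list, and low PAC, which is not drawn, has 0 in all.

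The other sensors, 13 of 15 measured, had 3 genes higher and 4 lower with LPS, led by Zbp1, a sensor of Z-form nucleic acid (9.26, from a control mean of 3.55 under the silent level), and Ifi204, a DNA sensor of the same family as Aim2 (7.44). Nlrp10 fell from 7.82 in control to 4.74 with LPS, at the silent level, so the size of that fall is not measured. Nlrc3, a NOD-like receptor described as a brake on inflammatory signalling, averaged 8.10 ± 0.10 in control, 5.87 ± 0.17 with LPS, 8.39 ± 0.24 with medium PAC + LPS and 7.66 ± 0.25 with high PAC + LPS. It was higher than with LPS by 2.52 (adjusted p = 5.9e-10) and 1.80 (adjusted p = 3.2e-07). Medium PAC moved 2 of these sensors up and 1 down in resting cells and 1 up and 2 down in activated cells, and high PAC moved 1 up and 1 down and then 1 up. The gene down in resting cells, and 1 of those in activated cells, was Mefv, which lay under the silent level in all groups (3.49 in control and 2.97 with medium PAC), so it gives no measured change. The others were Ifi204, up by 0.94 with medium and 0.88 with high PAC, Nlrc3, up by 0.59 with medium PAC, Nlrp1b, the anthrax lethal factor sensor, down with high PAC (-0.49), and Naip2, a partner of Nlrc4, down with medium PAC + LPS (-0.55).

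Regulators that add or remove marks on Nlrp3 or modify it otherwise, 11 measured, had 3 genes higher and 3 lower with LPS. Tnfaip3, which encodes the ubiquitin-editing enzyme A20, rose by 8.84 with LPS, by 2.33 with medium PAC and by 1.92 with high PAC, the single call of this list in each resting comparison. Hdac6, a deacetylase, fell with LPS by 1.45 and Pstpip1, a cytoskeletal adaptor that binds pyrin, rose by 1.32. In activated cells Pstpip1 fell with medium PAC by 0.55 and Brcc3, which deubiquitinates Nlrp3, fell with high PAC by 0.68. The thioredoxin and MondoA genes, 7 measured, had 4 higher and 1 lower with LPS. Arrdc3, an arrestin-domain relative of Txnip, fell from 8.38 in control to 4.72 with LPS, at the silent level, so the size of that fall is not measured, and in resting cells it fell by 2.41 with medium PAC and fell by 1.87 with high PAC. Txnrd1, thioredoxin reductase, and Arrdc4, a further arrestin-domain relative, rose with LPS by 1.14 and 1.04. Mlx, a partner of MondoA, rose with medium PAC by 0.47, Txn1, thioredoxin itself, differed with high PAC by -0.41 (adjusted p = 0.015), and Mlxip, MondoA, with medium PAC + LPS by -0.71 (adjusted p = 0.015). Of the priming receptors and adaptors, 6 of 7 measured, 4 rose and 1 fell with LPS. Tlr4, the LPS receptor, was the one that fell, and it fell with medium PAC + LPS by a further 1.43 (adjusted p = 2.5e-07) and with high PAC + LPS by 0.66 (adjusted p = 0.0044). Ticam1, its TRIF adaptor, rose by 2.91 with LPS, by 1.22 and 0.98 with medium and high PAC in resting cells and by 0.54 with medium PAC + LPS. Myd88, the other main adaptor, and Ly96, the LPS-binding partner of Tlr4, rose with LPS by 1.58 and 1.25, and Ly96 with medium PAC by 0.72. Cd14, the co-receptor that hands LPS over, was lower with medium PAC + LPS by -0.34.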

How the data were processed

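Total RNA of 24 RAW 264.7 samples was hybridised to Clariom S mouse arrays after whole-transcript labelling, and the authors analysed the arrays in Transcriptome Analysis Console. The authors deposited log2 values per feature, already summarised and normalized. The sources used here do not give the summarisation or background correction. Of 28846 features, 6640 array controls were left out and 22206 gene features were tested, of which 19572 (88.1%) had a symbol. Groups came from sample titles and treatment labels. A single limma fit (limma 3.58.1, R 4.3.3) held 1 mean per group over the 24 arrays, without further normalization, with 16 residual and 3.39 prior degrees of freedom and 16 contrasts. Two-sided p-values were adjusted over all gene features within a contrast (Benjamini-Hochberg), with a threshold of 0.05. The number of arrays limits the precision. The components and gene lists were chosen with earlier results of these data known. Every component is named. A gene of a pathway list is named if it was among the 3 with the largest change past the threshold in a comparison, and the values of Il1b with medium PAC + LPS, outside that rule, were added after they were seen. Of the marker lists only the markers that the text turns on are named. Promoter sequences came from RefSeq (GRCm38.p6). The test was checked on simulated data. Alternatives were quantile normalization, median centring, array weights, an intensity trend with a robust prior, a filter at the silent level, a replicate block, a fit of only the groups compared, leaving out each array, and, chosen after seeing the data, leaving out 3 resting arrays with high Il1b.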

Additional observations from a re-analysis of the deposited data

Results flagged for a closer look

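For 4 components the change with a PAC fraction, on the deposited scale, differed between LPS-activated and resting cells by limma's interaction test. Medium PAC gave 4 of the 10 components, against 6.29% of all features, and high PAC 2, against 1.91%. With medium PAC the difference between the changes, activated minus resting, was 2.33 for P2rx7, 1.02 for Nlrp3, 0.86 for Nek7 and -1.35 for Casp4. With high PAC it was 1.61 for P2rx7 and -1 for Casp4. The Nek7 call was lost in 4 of 20 alternatives and the high PAC call of Casp4 in 10 of 20. P2rx7 differed from its reference in opposite directions in the 2 states with medium PAC, by -0.58 in resting and 1.75 in activated cells. In resting cells its arrays overlapped control, and the call (limma adjusted p = 0.049) was lost in 6 of 14 alternatives.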

How the results depend on the processing

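Of 44 component changes past the threshold, 17 lost it in at least 1 alternative and 7 of the other 116 gained it, and none of the 44 changed direction. All 8 calls between LPS and control held in every alternative. The number of components called moved as follows. With only the groups compared, it fell from 4 to 2 for medium PAC against control, from 2 to 1 for high PAC + LPS against LPS, from 6 to 1 for medium against low PAC, from 2 to 1 for high against low and for medium against high PAC, from 2 to 0 for high against low and for medium against high PAC with LPS, and from 2 to 1 for the interaction of high PAC. An intensity trend with a robust prior gave 4 for high PAC + LPS against LPS. Median centring gave 1 for medium against high PAC. With a replicate block the count was 1 for medium against high PAC, where Aim2 had an adjusted p of 0.053, and 1 for the interaction of high PAC, where Casp4 had 0.055. The block changed no other component call. Same-numbered arrays of different groups had a median correlation of deviations of 0.005 (range -0.093 to 0.13), against -0.001 for arrays with other numbers. With 3 arrays a group, this check cannot decide whether the numbers pair the arrays, because a weak shared effect could look the same. Without the 3 arrays high in Il1b, chosen after seeing the data, the counts were 3, 1 and 1 for medium against low, high against low and medium against high PAC. Over all features 488 genes were then called for high against low and 103 for medium against high PAC. Leaving out 1 array at a time gave 8 to 8 components for LPS, 3 to 4 for medium PAC, 2 to 2 for high PAC, 4 to 4 for medium PAC + LPS and 2 to 3 for high PAC + LPS. It gave 3 to 5, 2 to 2 and 1 to 2 for medium against low, high against low and medium against high PAC, 4 to 4, 1 to 2 and 1 to 2 for the same pairs with LPS, and 3 to 5 and 1 to 2 for the interactions of medium and high PAC. Over all alternatives the genes called ran from 0 to 71 (main 8) for low PAC, 1624 to 3147 (2512) for medium PAC, 603 to 2101 (1521) for high PAC, 0 to 80 (33) for low PAC + LPS, 1972 to 3782 (3251) for medium PAC + LPS and 829 to 2812 (2238) for high PAC + LPS. For pairs of fractions they ran from 308 to 1629 (1083) for high against low PAC and 55 to 844 (504) for medium against high PAC, and with LPS from 1569 to 3279 (2774) for medium against low, 351 to 2098 (1553) for high against low and 203 to 1671 (1192) for medium against high. For the interactions of low and high PAC they ran from 0 to 8 (0) and 193 to 651 (425). Signal at the silent level limits Pycard and Nlrc4, for which differences were not detectable.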
